A study of Rattus norvegicus with 15 samples.

Results

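Annexins and S100 proteins were followed as transcripts in rat liver. The rule took every protein coding row of the deposited count table whose symbol begins with Anxa and a digit, or with S100, and it found 30 of 32623 genes. Of these, 12 are annexins and 18 are S100 rows. One of the S100 rows, S100pbp, encodes a protein that binds S100P and is not itself an S100 protein. The rule reads the symbol and the biotype of a row and no level.

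Annexins are calcium-dependent proteins that attach to phospholipids at the inner face of membranes, where they take part in vesicle traffic, membrane repair and the anchoring of the actin cytoskeleton. S100 proteins are small EF-hand calcium sensors that mostly work as dimers, bind target proteins inside the cell and, in some cases, leave the cell and act on receptors such as RAGE and TLR4. Several members of both families pair with each other. In healthy liver most of the tissue is hepatocytes, while bile duct epithelium, stellate cells and leukocytes are known as richer sources of many of these transcripts.

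The study asked which genes respond to the mineralocorticoid receptor antagonist eplerenone in cirrhosis. All animals were male Wistar rats. Control rats received no treatment. Cirrhosis rats inhaled CCl4, a hepatocyte toxin, and drank phenobarbital at 0.35 g/L for 12 weeks, and cirrhosis & eplerenone rats had the same treatment plus oral eplerenone at 100 mg/kg from week 8 on. CCl4 and phenobarbital came together in both treated groups, so their effects cannot be told apart. Livers of the treated rats were taken 7 to 10 days after the last CCl4. Per the study, the sequenced animals were picked from a larger cohort because the induction of cirrhosis or the eplerenone treatment had succeeded, which limits the groups as a sample of treated rats. The table gave 4 controls (replicates 2 to 5), 5 cirrhosis rats and 5 cirrhosis & eplerenone rats, each a different animal. Control replicate 1 was not analysed here. Per the study, a principal component analysis set 1 control sample apart from the other 4, and that sample was excluded. The control ranges below describe only the 4 controls used.

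Each sample held 16157491 to 21574767 counted reads. Levels are given as FPM, the fragments of a gene per 1000000 reads in tested genes after TMM scaling, and 3 counts stood for 0.121 to 0.191 FPM. FPM were not divided by gene length, so the level of 1 gene was compared between rats and not with that of another gene. The sums over marker lists below add the FPM of several genes, so genes with the highest FPM weigh most in them. A gene was called DEG where edgeR (quasi-likelihood test) and DESeq2 (Wald test) both gave an FDR below 0.05, with the Benjamini-Hochberg adjustment taken over the 14417 genes that were tested. The log2FC and its SE come from edgeR. The low-count filter was passed by 20 members, 10 annexins and 10 S100 rows. Among them, S100a8 reached 10 counts in 0 of 4 controls and S100a4 and S100a9 in 2 of 4. S100a8 thus passed only through the treated groups, and S100a4 and S100a9 mainly through them. The counts of members below describe the 20 that passed and not the 30. The liver label was checked against hepatocyte markers, whose summed level was 105937 to 201808 FPM per rat.

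The promoters of 4 members that were higher in cirrhosis are shown first. Anxa2, Anxa5 and S100a11 ordered the rats of each treated group identically, and S100a4 differed from them in 1 pair of rats, as described further below. RefSeq (GRCr8) gave a promoter for 23 of 30 members, and S100a10 is not among them. Each line holds the 250 bases before the annotated start, written 5′ to 3′ along the gene. Capitals mark matches on either strand to AP-1 (TGANTCA), the GC box (GGGCGG), the TATA box (TATAAA) and the core of the hypoxia response element (ACGTG). The location is chr8:78986002-78986251 on the plus strand for Anxa2, chr2:121272697-121272946 on the minus strand for Anxa5, chr2:181874882-181875131 on the plus strand for S100a11 and chr2:178388279-178388528 on the plus strand for S100a4.
Anxa2: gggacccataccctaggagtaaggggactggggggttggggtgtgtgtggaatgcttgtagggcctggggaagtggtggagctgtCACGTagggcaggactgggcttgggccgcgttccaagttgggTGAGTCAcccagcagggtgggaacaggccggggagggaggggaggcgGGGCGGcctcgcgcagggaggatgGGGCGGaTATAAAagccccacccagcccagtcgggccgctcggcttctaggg
Anxa5: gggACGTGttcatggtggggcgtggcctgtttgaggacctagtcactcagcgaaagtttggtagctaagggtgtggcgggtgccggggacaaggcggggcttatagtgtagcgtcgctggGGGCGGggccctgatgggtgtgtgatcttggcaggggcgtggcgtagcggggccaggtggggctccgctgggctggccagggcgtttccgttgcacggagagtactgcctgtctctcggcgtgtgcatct
S100a11: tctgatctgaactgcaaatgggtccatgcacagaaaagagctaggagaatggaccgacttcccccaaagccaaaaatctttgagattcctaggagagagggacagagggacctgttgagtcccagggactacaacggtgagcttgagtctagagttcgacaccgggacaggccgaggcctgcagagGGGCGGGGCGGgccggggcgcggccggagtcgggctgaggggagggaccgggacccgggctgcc
S100a4: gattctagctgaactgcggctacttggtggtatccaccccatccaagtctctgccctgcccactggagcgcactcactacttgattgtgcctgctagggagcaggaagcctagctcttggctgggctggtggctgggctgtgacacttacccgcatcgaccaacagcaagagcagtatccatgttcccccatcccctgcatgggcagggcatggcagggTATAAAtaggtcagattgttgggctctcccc

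The Anxa2 promoter carried 1 AP-1 match that began 123 bases before the start and a TATA box 45 bases before it. S100a4 had a TATA box 31 bases before the start and no GC box. Anxa5 and S100a11 had GC boxes and no TATA box in this window. The promoters of Anxa2, Anxa5 and S100a11 thus shared the GC box letters and no other motif searched. GC boxes were present in 33.1% of all 33469 promoters of 300 bases (250 before and 50 after the start) and in 9 of the 14 tested members that had a promoter. These were 6 of the 10 called in cirrhosis, and Anxa3, Anxa11 and S100a13, which were not called. TATA boxes were present in 14.2% of all promoters and in 4 of these 14 members, Anxa1, Anxa2, S100a4 and S100a9. The hypoxia core was found in 19.3% of all promoters and in 3 of the 14, Anxa2, Anxa5 and S100a6. AP-1 was found in 7.33% and in 1 of the 14, and the C/EBP letters TTGCNNAA were found in 10.6% and in 1 of the 14, Anxa1. The palindromic core of the steroid receptor element, which mineralocorticoid and glucocorticoid receptors share, was found in 0.439% of all promoters and in 0 of the 14. Some of these motifs can overlap, as the 2 GC boxes of S100a11 do, and a match is a description of letters only.

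Between control and cirrhosis, 14 of the 20 members that passed the filter were called DEG, and all 14 were higher in cirrhosis. They were the annexins Anxa1, Anxa2, Anxa4, Anxa5, Anxa7 and Anxa13 and the S100 genes S100a1, S100a4, S100a6, S100a8, S100a9, S100a10, S100a11 and S100a16. Of all 13628 protein coding genes tested, 20.6% were called, 13.8% higher and 6.72% lower. With 10 counts required in every sample, S100a4, S100a8 and S100a9 were not tested, and the other called members kept their call. In that fit 17.8% of the protein coding genes tested were called. The median log2FC was 1.90 over the 20 members, 1.57 over the annexins and 3.03 over the S100 rows, beside -0.01 over all protein coding genes. In bulk tissue, fewer cells of a type and less RNA per cell cannot be told apart, and the same holds for more of either.

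**Figure D1:**
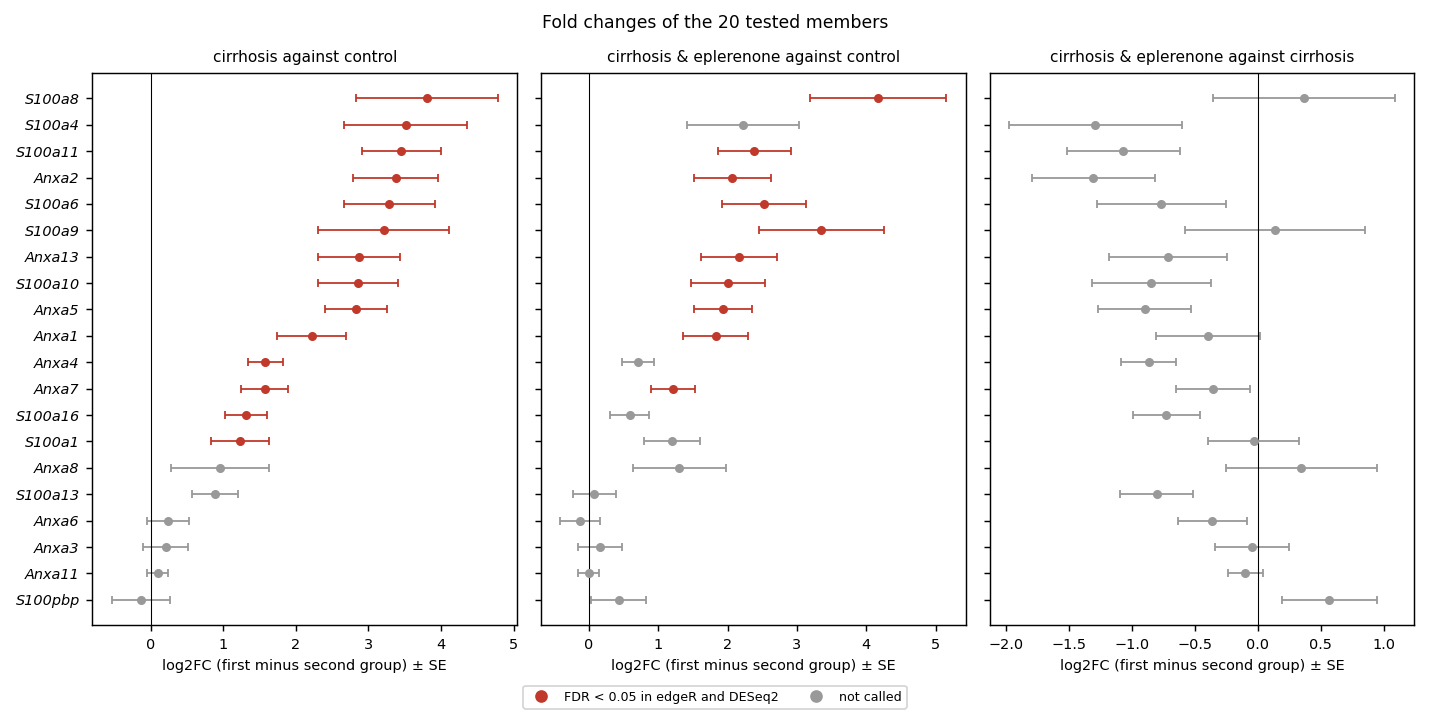
The log2FC (x axis, first named group minus second) of the 20 members that passed the filter, with the SE as bars, in 3 comparisons, red where both tools gave an FDR below 0.05. In cirrhosis against control 14 points are red and lie between 1.23 and 3.80, in cirrhosis & eplerenone against control 10 are red, and between the treated groups 0 are red and 16 lie below 0.

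Anxa2 and S100a10 (p11) form a heterotetramer that sits at the membrane and binds plasminogen and its activator. Anxa2 was at 11.4, 9.60, 9.65 and 7.44 FPM in the controls (replicates 2 to 5), and at 105, 67.1, 166, 135 and 21.5 FPM in cirrhosis (replicates 1 to 5). Even the lowest cirrhosis rat, replicate 5, lay above the highest control. The mean was 98.9 ± 56.6 FPM (SD, n = 5) against 9.52 ± 1.62 (SD, n = 4), a log2FC of 3.38 (SE 0.58, edgeR adjusted p = 0.00209).

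S100a10 was at 10.7, 8.62, 8.12 and 5.22 FPM in controls and at 74.7, 34.7, 91.8, 75.5 and 18.9 FPM in cirrhosis, again without overlap. Its log2FC was 2.85 (SE 0.55, edgeR adjusted p = 0.0038). Within the cirrhosis group the rats ranked in the same order for both subunits.

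S100a11 (calgizzarin), which binds Anxa1, and S100a6 (calcyclin), which binds the Cacybp gene product, moved by similar factors. S100a11 rose from 4.22, 3.53, 3.91 and 2.35 FPM in controls to 44.2, 28.9, 59.5, 47.3 and 12.2 FPM in cirrhosis, a log2FC of 3.45 (SE 0.55, edgeR adjusted p = 0.00135). S100a6 rose from 2.83, 2.26, 3.30 and 1.08 FPM to 28.8, 14.1, 33.7, 31.6 and 7.86 FPM, a log2FC of 3.29 (SE 0.62, edgeR adjusted p = 0.00341). For both genes replicate 5 was the lowest cirrhosis rat and still lay above the highest control.

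S100a4, also known as fibroblast-specific protein 1, binds non-muscle myosin and is expressed by fibroblasts and by some leukocytes. It was at 1.87, 0.347, 0.427 and 0.827 FPM in controls and at 10.8, 6.16, 17.96, 12.7 and 2.20 FPM in cirrhosis. Here the margin was narrow, since cirrhosis replicate 5 exceeded control replicate 2 only slightly. The log2FC was 3.51 (SE 0.84, edgeR adjusted p = 0.0116). The controls together held 57 counts, and the ratio of FPM from the summed counts was 11.4 (exact 95% interval 8.76 to 15.2, counting error only). It kept its call in the 9 fits that each left out 1 compared rat, with a log2FC of 3.19 to 4.21, the highest without control replicate 2.

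S100a8 and S100a9 form calprotectin, the abundant cytosolic protein of neutrophils and monocytes and a ligand of TLR4 and RAGE. S100a8 was at 0.121, 0.231, 0.183 and 0.254 FPM in controls, 2 to 4 counts per rat, and at 1.66, 0.326, 2.70, 7.28 and 2.26 FPM in cirrhosis. S100a9 was at 0.844, 0.752, 0.244 and 0.254 FPM in controls and at 5.88, 0.490, 3.94, 9.90 and 4.46 FPM in cirrhosis. In both genes cirrhosis replicate 4 was the highest and replicate 2 the lowest, and replicate 2 fell within the control range for S100a9.

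The log2FC was 3.80 (SE 0.98, edgeR adjusted p = 0.0159) for S100a8 and 3.21 (SE 0.90, edgeR adjusted p = 0.0233) for S100a9. From the summed counts, 268 in cirrhosis against 13 in controls, the S100a8 ratio was 14.0 (exact 95% interval 8.03 to 26.6, counting error only). For S100a9 it was 8.89 (6.30 to 12.9). S100a9 lost its call without control replicate 3 (the log2FC over the 9 fits that each left out 1 compared rat was 2.80 to 3.53), and likewise without control replicate 4, control replicate 5 or cirrhosis replicate 4. S100a8 kept its call in all 9 of these fits, with a log2FC of 3.10 to 4.10. All of them rest on controls with 2 to 4 counts each, and S100a8 was not tested where 10 counts were required in every sample. The lowest log2FC of S100a8 was without cirrhosis replicate 4.

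Anxa13, an annexin of polarized epithelia, was at 2.35, 1.56, 2.20 and 1.02 FPM in controls and at 13.9, 16.1, 14.4, 18.5 and 2.62 FPM in cirrhosis. Of the cirrhosis rats, 4 lay close together and replicate 5 lay just above the controls. The log2FC was 2.87 (SE 0.56, edgeR adjusted p = 0.00392).

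Anxa4, known from secretory epithelia including bile ducts, was at 29.7, 30.4, 33.7 and 26.4 FPM in controls and at 83.3, 125, 115, 79.5 and 45.6 FPM in cirrhosis. Controls differed by at most 1.28-fold and all 5 cirrhosis rats lay above them, so Anxa4 had a smaller fold change, 2.98-fold, with a small error (log2FC 1.58, SE 0.24, edgeR adjusted p = 0.00119). Anxa5, which binds phosphatidylserine and serves as a stain for dying cells, rose 7.12-fold (log2FC 2.83, SE 0.43, edgeR adjusted p = 0.00119), from 16.0 ± 1.48 FPM (SD, n = 4) to 114 ± 43.7 (SD, n = 5). Anxa1, a glucocorticoid-induced protein that dampens neutrophil recruitment, rose 4.66-fold (log2FC 2.22, SE 0.48, edgeR adjusted p = 0.00666). Anxa7, which aggregates secretory granules, rose 2.97-fold (log2FC 1.57, SE 0.33, edgeR adjusted p = 0.00554).

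S100a16, a widely expressed member, was at 27.9, 28.0, 25.2 and 21.2 FPM in controls and at 88.1, 46.9, 90.8, 65.6 and 27.4 FPM in cirrhosis. Here replicate 5 fell inside the control range while the other 4 rats lay above it (log2FC 1.32, SE 0.29, edgeR adjusted p = 0.00728). S100a1, best known from heart muscle, had the largest adjusted p among the 14 (log2FC 1.23, SE 0.40, edgeR adjusted p = 0.0436), and its groups also overlapped. It lost its call in 7 of the 9 fits that left out 1 compared rat, keeping it only without control replicate 2 or cirrhosis replicate 5. In 11 of the 20 members every cirrhosis rat exceeded every control, as did 11.5% of all protein coding genes.

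The remaining 6 members that passed the filter were not called. S100a13, which takes part in the release of FGF1 without a signal peptide, was at 11.7, 9.77, 9.46 and 8.71 FPM in controls and at 21.8, 11.5, 27.7, 15.2 and 15.5 FPM in cirrhosis. DESeq2 gave it an adjusted p of 0.0254 and edgeR one of 0.0563 (log2FC 0.89, SE 0.31). The log2FC was 0.96 for Anxa8 (SE 0.67), 0.24 for Anxa6, the annexin with a duplicated core (SE 0.29), 0.21 for Anxa3 (SE 0.31), 0.10 for Anxa11 (SE 0.15) and -0.14 for S100pbp (SE 0.40). Control and cirrhosis overlapped in all of these. Anxa11 stayed between 52.7 and 78.6 FPM over all 14 rats. Leaving out each of the 9 compared rats in turn gave 12 to 15 called members, while the share of all protein coding genes called ran from 9.48% without control replicate 5 to 32.5% without cirrhosis replicate 5.

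**Figure D2:**
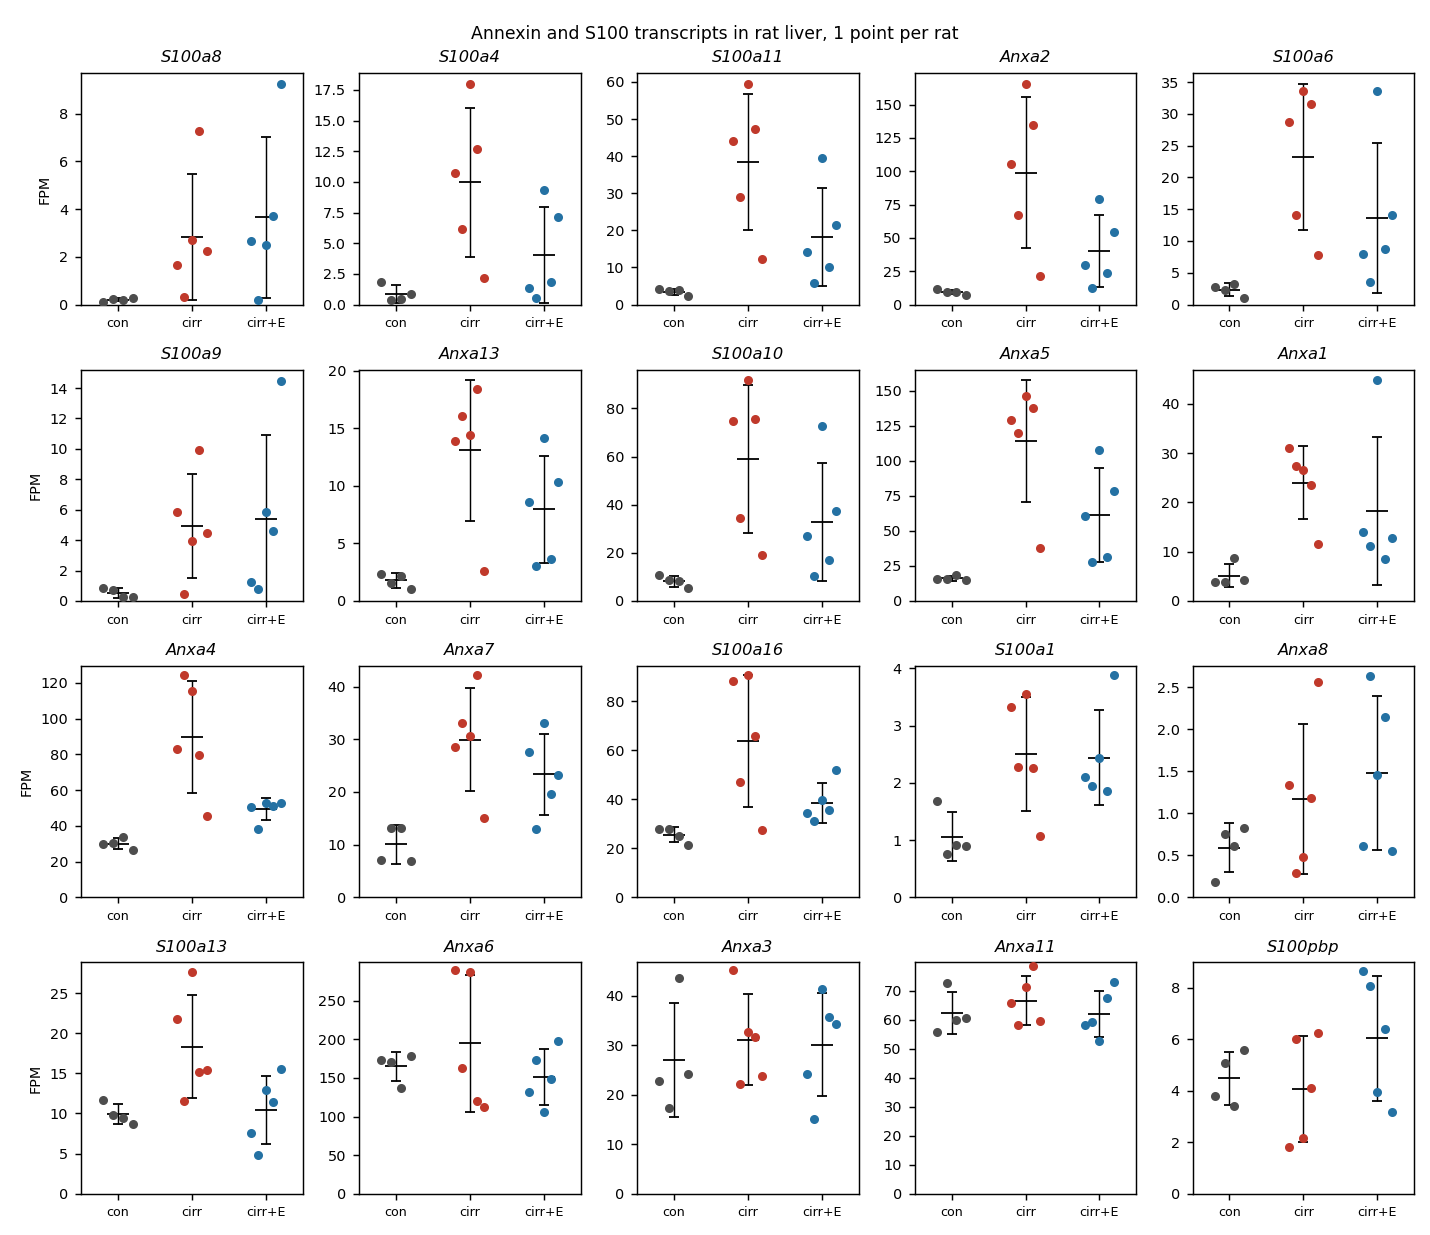
Levels of the 20 members that passed the filter (y axis, FPM, linear from 0), with 1 point per rat, the mean as a wide tick and the SD as bars, for control (con, n = 4), cirrhosis (cirr, n = 5) and cirrhosis & eplerenone (cirr+E, n = 5). Anxa2 controls lie between 7.44 and 11.4 FPM and cirrhosis rats between 21.5 and 166, while the Anxa11 groups overlap.

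The other 10 members did not pass the filter. S100a7l2 and S100vp had no count in any rat, which allows up to 3 counts or 0.121 to 0.191 FPM per rat. S100a5, S100a7a and S100z had counts in 1 rat only, cirrhosis replicate 4, with 1, 2 and 5 counts. S100a3 had 0 counts in the controls, 10 in the cirrhosis rats and 11 in the cirrhosis & eplerenone rats. S100b, the astrocyte and Schwann cell member, had at most 15 counts in a rat, again in cirrhosis replicate 4, and S100g, which carries calcium in intestine and kidney, at most 6. Anxa10 had at most 7 and Anxa9 at most 14. These members were not detectable at a testable level at this depth, and no difference between groups was read from them.

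Against control, the cirrhosis & eplerenone rats had 10 of the 20 members called, all higher: Anxa1, Anxa2, Anxa5, Anxa7, Anxa13, S100a6, S100a8, S100a9, S100a10 and S100a11. Of all protein coding genes, 5.33% were called in this comparison, 4.5% higher. The median log2FC was 1.57 over the 20 members and 0.01 over all genes. All 10 were also called between control and cirrhosis, a comparison that uses the same controls, so the overlap is not separate evidence. Anxa4, S100a1, S100a4 and S100a16 were called only there, and whether the 2 changes differ is given by the comparison of the treated groups below.

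S100a8 had the largest log2FC, 4.17 (SE 0.98, edgeR adjusted p = 0.0235), at 2.66, 0.188, 2.51, 3.73 and 9.23 FPM in replicates 1 to 5. S100a9 followed with 3.35 (SE 0.90, edgeR adjusted p = 0.043), at 1.28, 0.814, 5.87, 4.63 and 14.5 FPM. For both calprotectin genes replicate 2 was inside the control range and replicate 5 was the highest of all 14 rats. The summed counts of S100a8, 352 against 13, gave a ratio of 18.6 (exact 95% interval 10.7 to 35.2, counting error only).

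Anxa2 was at 29.8, 12.1, 79.5, 23.5 and 54.6 FPM (log2FC 2.07, SE 0.55, edgeR adjusted p = 0.0418), and S100a10 at 27.1, 10.3, 72.5, 17.1 and 37.2 FPM (log2FC 2.01, SE 0.54, edgeR adjusted p = 0.0417). Replicate 2 was near the controls for both subunits and replicate 3 was the highest. S100a11 was at 14.2, 5.88, 39.6, 10.2 and 21.5 FPM (log2FC 2.38, SE 0.52, edgeR adjusted p = 0.0166), and S100a6 at 8.02, 3.57, 33.6, 8.69 and 14.0 FPM (log2FC 2.52, SE 0.61, edgeR adjusted p = 0.0254). Both kept every rat above the controls.

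Anxa13 was at 8.59, 3.07, 14.2, 3.67 and 10.3 FPM (log2FC 2.16, SE 0.55, edgeR adjusted p = 0.0327). The log2FC was 1.93 for Anxa5 (SE 0.41, edgeR adjusted p = 0.0151), 1.83 for Anxa1 (SE 0.47, edgeR adjusted p = 0.0354) and 1.22 for Anxa7 (SE 0.32, edgeR adjusted p = 0.041). In 8 of the 20 members all cirrhosis & eplerenone rats lay above all controls, beside 6.7% of all genes. These 8 include Anxa4, S100a1 and S100a16, which were not called.

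S100a4 was at 1.33, 0.563, 9.31, 1.86 and 7.16 FPM, and was not called (log2FC 2.22, SE 0.81, edgeR adjusted p = 0.129). Its 2 high rats, replicates 3 and 5, stood well above the other 3, which lay within the control range. Anxa4 was at 50.4, 38.4, 53.1, 51.2 and 52.8 FPM, a tight group above all controls that missed the call in edgeR (log2FC 0.71, SE 0.23, edgeR adjusted p = 0.0909) but not in DESeq2 (adjusted p = 0.0435). S100a16 was at 34.3, 31.2, 39.9, 35.5 and 51.8 FPM (log2FC 0.59, SE 0.28, edgeR adjusted p = 0.257).

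For the other members without a call the log2FC was 1.20 for S100a1, 1.30 for Anxa8, 0.43 for S100pbp, 0.16 for Anxa3, 0.08 for S100a13, -0.12 for Anxa6 and -0.0039 for Anxa11. The number called in this comparison rested on single rats. It fell to 0 without control replicate 3 or control replicate 5, to 2 without control replicate 2, and to 3 without control replicate 4 or cirrhosis & eplerenone replicate 3. It was 4 without cirrhosis & eplerenone replicate 5, 6 without cirrhosis & eplerenone replicate 1, and 6 without cirrhosis replicate 1, which enters through the shared spread. Calls over all protein coding genes, 5.33% with all rats, fell as well in these fits. They were 2.85%, 2.15%, 2.89% and 1.5% without control replicates 2, 3, 4 and 5. They were 3.96%, 2.67% and 3.58% without cirrhosis & eplerenone replicates 1, 3 and 5, and 4.6% without cirrhosis replicate 1. The size of called members also shifted with 1 rat, shown here for 4 of them, and stayed above 0 in these 4. Without cirrhosis & eplerenone replicate 3 the log2FC was 1.17 for Anxa1 and 1.86 for S100a6, and without cirrhosis & eplerenone replicate 5 it was 3.49 for S100a8 and 2.57 for S100a9.

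Between cirrhosis & eplerenone and cirrhosis, 0 of the 20 members were called by edgeR and DESeq2 together, beside 0.0147% of all protein coding genes. At an unadjusted edgeR p below 0.05 there were 6 members, all lower with eplerenone, namely Anxa2, Anxa4, Anxa5, S100a11, S100a13 and S100a16. The same held for 7.62% of all genes. DESeq2 alone called 1 member, Anxa4 (adjusted p = 0.0458), and 0.492% of all genes. The log2FC was below 0 for 16 of the 20 members, beside 49% of all genes, and the median was -0.55 beside 0.01.

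Anxa4 had the smallest edgeR p (log2FC -0.87, SE 0.22, adjusted p = 0.312). Its 4 higher cirrhosis rats, at 79.5 to 125 FPM, exceeded all 5 cirrhosis & eplerenone rats, at 38.4 to 53.1 FPM, and cirrhosis replicate 5 at 45.6 FPM lay among them. S100a13 came next (log2FC -0.80, SE 0.29, edgeR adjusted p = 0.313), at 7.62, 4.88, 12.9, 11.5 and 15.5 FPM with eplerenone, so that its groups overlapped and its mean with eplerenone, 10.5 FPM, was near the control mean of 9.91. S100a16 fell by 0.73 on the log2 scale without passing the test (SE 0.26, edgeR adjusted p = 0.314).

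The log2FC was -1.31 for Anxa2 (SE 0.49, edgeR adjusted p = 0.315), -1.29 for S100a4, -1.07 for S100a11, -0.90 for Anxa5, -0.85 for S100a10, -0.77 for S100a6 and -0.71 for Anxa13. It was -0.39 for Anxa1, -0.36 for Anxa6 and for Anxa7, -0.10 for Anxa11, -0.05 for Anxa3 and -0.03 for S100a1. The 4 members above 0 were S100pbp (0.57), S100a8 (0.37), Anxa8 (0.34) and S100a9 (0.14). The calprotectin genes thus had values of the opposite sign to Anxa2 and S100a11, but with an SE of 0.72 for S100a8 and 0.71 for S100a9 their values cover a wide range in either direction.

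The rats of each treated group differed among themselves. Over the 14 members called in cirrhosis, the median log2 ratio of a rat to the control mean was 3.04, 2.25, 3.10, 3.29 and 1.19 in cirrhosis replicates 1 to 5 and 1.55, 0.48, 3.09, 1.05 and 2.41 in cirrhosis & eplerenone replicates 1 to 5. Cirrhosis replicate 5 was the lowest cirrhosis rat in 12 of the 14 members. Cirrhosis & eplerenone replicate 3 was the highest of its group in 10 of the 14 and replicate 2 the lowest in 12 of the 14. With 4 rats per group, leaving out cirrhosis replicate 5 and cirrhosis & eplerenone replicate 3, a choice made with earlier results of these data known, 9 members were called lower with eplerenone, Anxa1, Anxa2, Anxa4, Anxa5, Anxa13, S100a6, S100a10, S100a11 and S100a16. In the same fit 9.22% of all protein coding genes were called, in either direction. Both omitted rats lay on the side that narrows the difference, so this value shows how much rests on them and is not a separate test. Without cirrhosis replicate 5 alone 1 member was called, Anxa4, beside 0.184% of all genes, and without cirrhosis & eplerenone replicate 3 alone 0 were.

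**Figure D3:**
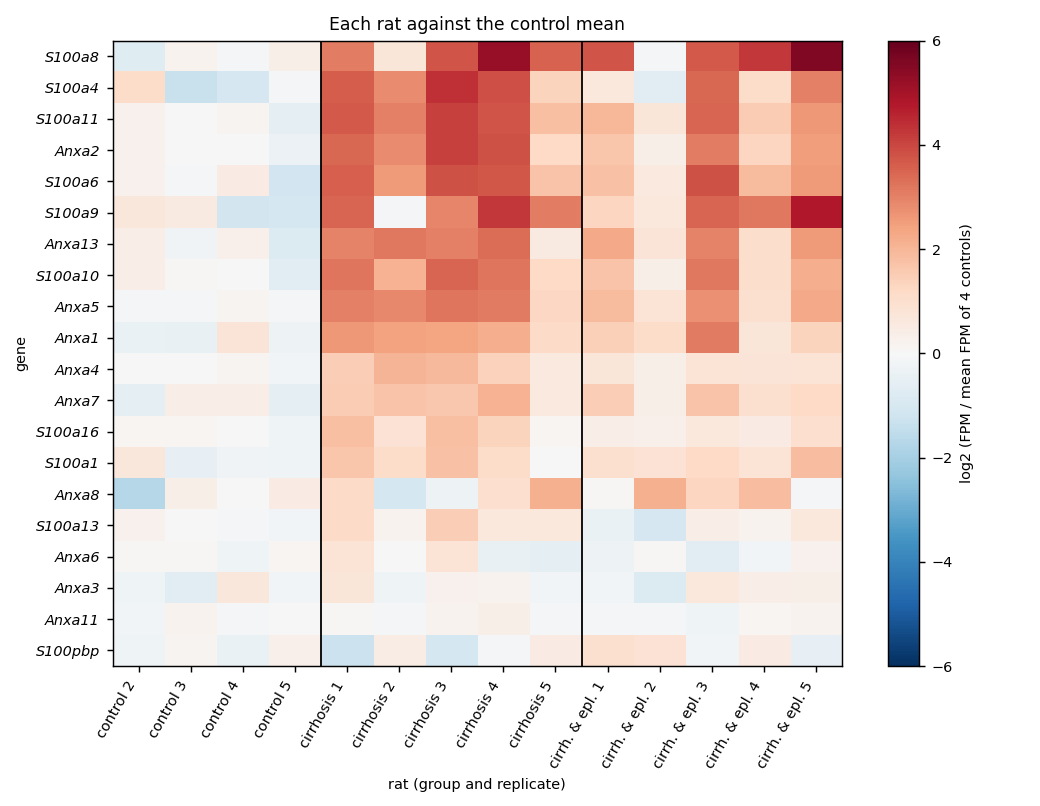
Each rat (column, group and replicate) against the mean of the 4 controls for the 20 members that passed the filter (rows), as log2 of the FPM ratio, red above and blue below the control mean. Cirrhosis replicate 5 is paler than the other cirrhosis rats, with a median of 1.19 over the 14 called members, and cirrhosis & eplerenone replicate 3 is as dark as they are, with 3.09.

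The number that opens the animal label was 13 or 16 in controls and 15 or 20 in treated rats, so this number and CCl4 cannot be told apart. What it stands for is not given in the sources used here. It does divide the treated rats, with 3 cirrhosis and 2 cirrhosis & eplerenone rats under 15 and 2 and 3 under 20. Within 15, 18 of the 20 members were lower with eplerenone and the median log2FC was -1.27 (-0.01 over all 14417 genes). Within 20, 14 of the 20 were lower and the median was -0.15 (0.01 over all genes). Fitted on the rats of 1 number alone, the members gave the same counts, and 49.4% of all protein coding genes were lower within 15 and 47.9% within 20. S100a4 differed most, with -3.62 under 15 and -0.27 under 20. Anxa2 had -2.45 and -0.56, S100a11 -2.16 and -0.31, S100a10 -1.87 and -0.14, and Anxa4 -1.31 and -0.24. Anxa1, Anxa3, Anxa6, S100a1, S100a8 and S100a9 were below 0 under 15 and above 0 under 20, with S100a9 at -1.72 and 0.23. Anxa8 (1.18 and -0.40) and S100pbp (1.29 and -0.18) had the opposite signs.

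The interaction of eplerenone and this number was tested in the 10 treated rats with the quasi-likelihood test of edgeR. It was called for 0 members and 0 of the 14417 genes, with 5 members (Anxa3, Anxa4, Anxa6, S100a4 and S100a13) and 1746 genes at an unadjusted p below 0.05. The smallest adjusted p among members was 0.381, for S100a13. With the number as a covariate, and within each number alone, 0 members were called for eplerenone. Of all protein coding genes, 0.0152% were called with the covariate, 0.603% within 15 and 0 within 20.

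**Figure D4:**
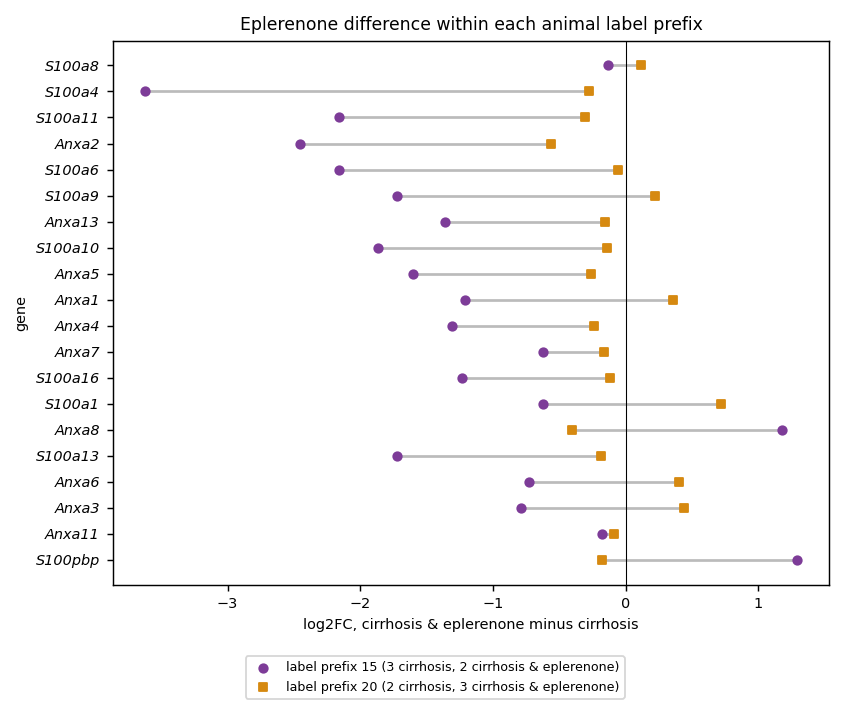
The log2FC of cirrhosis & eplerenone against cirrhosis (x axis) for the 20 members (y axis), fitted within the rats whose label opens with 15 (circles, 3 against 2 rats) and with 20 (squares, 2 against 3 rats). For S100a4 the circle is at -3.62 and the square at -0.27, and 18 circles and 14 squares lie below 0.

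Members resembled each other in how they ordered the rats within a treated group. There are 20 pairs of rats within the 2 treated groups. Anxa5, S100a10 and S100a11 ordered all 20 pairs as Anxa2 did, S100a4 and S100a6 ordered 19, and Anxa13 and S100a16 ordered 17. Over all protein coding genes the median was 10 pairs, and 3.68% of genes (502 of 13628, Anxa2 among them) reached 18 or more. S100a9 matched Anxa2 in 14 pairs, S100a8 in 13, Anxa6 in 10, and Anxa8 and S100pbp in 5. S100a8 and S100a9, subunits of 1 protein, matched each other in 15 of the 20. Anxa11 matched S100a8 in 17, and S100a4, S100a6, S100a13 and S100a16 in 14, beside a median of 10 over all genes. The pairs share their libraries and are not independent, so these are descriptions without a test.

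Many S100 genes are neighbours. In RefSeq, S100a1, S100a13, S100a14, S100a16, S100a3, S100a4, S100a5, S100a6, S100a7a, S100a8 and S100a9 follow each other on chromosome 2 with no other protein coding gene between them, and S100a11 and S100a10 are next to each other elsewhere on this chromosome. S100a14 was not analysed here. The block held 6 genes called higher in cirrhosis (S100a1, S100a4, S100a6, S100a8, S100a9 and S100a16), beside 13.8% of all protein coding genes. It also held S100a13 without a call, and S100a3, S100a5 and S100a7a below the filter. Of the 9 fits that each left out 1 compared rat, S100a1 kept its call in 2 and S100a9 in 5. Of the genes just outside the block, Ilf2 had a log2FC of 0.08 (SE 0.17), Chtop 0.06 (SE 0.13) and Snapin -0.60 (SE 0.18, edgeR adjusted p = 0.0321), and Pglyrp4 had no count. Within the block, S100a4 and S100a8 ordered the rats alike in 14 of 20 within-group pairs. Whether strand was used in the counting is not given in the sources used here, so reads from overlapping genes cannot be told apart. In RefSeq an overlapping gene is listed for Anxa4, Anxa6, Anxa7, Anxa13 and S100pbp among the tested members.

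Receptors and binding partners of both families were taken from a list of 20 genes, of which 17 were tested. Between control and cirrhosis 6 of the 17 were called higher and 1 lower, beside 13.8% and 6.72% of all protein coding genes. The higher ones included Plat (log2FC 1.85), which encodes the tissue plasminogen activator, Ahnak (1.85), a large scaffold protein, and Plaur (2.04), the urokinase receptor. Myof (2.06), a membrane repair protein, Plscr1 (1.79), a phospholipid scramblase, and Tlr2 (1.82) were also higher. Cacybp, which encodes the S100a6 partner calcyclin-binding protein, was lower (-0.65, SE 0.22, edgeR adjusted p = 0.049). The calprotectin receptor genes had log2FC of 0.34 (SE 0.49) for Tlr4 and 1.49 (SE 0.59, edgeR adjusted p = 0.0800) for Ager, which encodes RAGE, and neither was called. Other partners had no call, with -0.52 (SE 0.28) for Plg, the plasminogen gene, 0.45 (SE 0.45) for Plau, which encodes urokinase, and -0.55 (SE 0.57) for Trpv6, a calcium channel. The formyl peptide receptor genes were not tested, Fpr1 with no count and Fpr2 below the filter, and Cd36 was not analysed here.

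With eplerenone, 4 partners were called higher against control, Ahnak, Myof, Plaur and Plscr1, beside 4.5% of all protein coding genes called higher, and 0 of the 17 between the treated groups. The median log2FC of the partners was 0.76, 0.77 and -0.26 in the 3 comparisons, in the order used above. Myh9, the heavy chain of the myosin that S100a4 binds, had -0.01 (SE 0.33) in cirrhosis.

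Marker lists of other cell types were set beside the 13.8% of all protein coding genes called higher in cirrhosis and the 6.72% called lower. Of 8 bile duct markers 7 were higher in cirrhosis, and their summed level was 29.2 to 39.4 FPM in controls, 68.7 to 130 in cirrhosis and 58.4 to 116 with eplerenone. Of 8 stellate cell and myofibroblast markers 6 were higher, with sums of 129 to 229, 252 to 570 and 367 to 552 FPM. Col3a1 weighed most in this sum, with medians of 126, 193 and 281 FPM in control, cirrhosis and cirrhosis & eplerenone. The medians of Acta2, Tagln, Col1a1, Lum, Pdgfrb, Des and Timp1 were lower with eplerenone than in cirrhosis, for Acta2 6.66 against 19.3 FPM. The Acta2 ranges were close, 1.31 to 30.2 FPM with eplerenone and 2.26 to 30.0 FPM in cirrhosis. Between the treated groups 0 stellate markers were called. Mesothelial markers had 2 of 4 higher, of which Krt19 is also one of the 7 bile duct markers, with sums of 6.01 to 11.5, 29.9 to 108 and 13.3 to 59.2 FPM, and the defining marker Msln had a log2FC of 3.64 (SE 0.53, edgeR adjusted p = 0.00095). Lymphocyte markers had 4 of 6 tested higher, with sums of 2.31 to 4.22, 5.42 to 14.9 and 3.32 to 9.94 FPM.

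The rats that stood apart in the members did so in several of these sums, though not in all. Cirrhosis replicate 5 had the lowest sum of its group for bile duct (68.7 FPM), stellate (252 FPM), mesothelial (29.9 FPM), lymphocyte (5.42 FPM) and neutrophil markers (4.88 FPM). Cirrhosis & eplerenone replicate 3 had the highest sum of its group for bile duct (116 FPM), stellate (552 FPM), mesothelial (59.2 FPM) and neutrophil markers (12.4 FPM). It also had the lowest hepatocyte sum of all rats, 105937 FPM. Cirrhosis replicate 5 had the highest hepatocyte sum of its group, 191902 FPM, and the lowest endothelial sum, 104 FPM. Cirrhosis & eplerenone replicate 2 had the lowest bile duct (58.4 FPM) and mesothelial sums (13.3 FPM) of its group. The same held for its lymphocyte (3.32 FPM), neutrophil (4.19 FPM), macrophage (173 FPM) and endothelial sums (139 FPM). Its stellate sum, 450 FPM, was by contrast exceeded only by that of replicate 3. How much of the members' difference these cell types account for was not tested.

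Neutrophil markers were set beside the calprotectin genes. Their sum was 2.04 to 3.66 FPM in controls, 4.88 to 12.4 in cirrhosis and 4.19 to 12.4 with eplerenone. Itgam, which is shared with macrophages, held much of this sum, at 1.79 to 3.05, 1.96 to 6.21 and 2.48 to 7.37 FPM. Cxcr2, below the filter, had medians of 0.0302, 0.0555 and 0.0626 FPM. Of the 8 markers 3 were tested and 1, Csf3r, was called higher in cirrhosis (log2FC 1.84, SE 0.59, edgeR adjusted p = 0.0404). The granule genes Mpo, Elane and Camp were at 0 in all controls, and Mpo reached 0.974 FPM, Elane 0.513 and Camp 1.74 in the highest cirrhosis rat. Their medians in cirrhosis were only 0.417, 0 and 0.0816 FPM, and the highest count was 34, for Camp. Mpo and Elane did not pass the filter, and Camp was tested without a call in cirrhosis. Macrophage markers had 2 of 8 higher, Trem2 and Gpnmb, and 1 lower, Cd163, beside 13.8% and 6.72% of all protein coding genes. Their sums were 194 to 334, 200 to 377 and 173 to 419 FPM. Endothelial markers had 1 higher and 1 lower of 5 tested, and hepatocyte markers had 1 of 8 lower, Hnf4a. Eplerenone against control had 5 bile duct, 2 stellate, 2 macrophage, 1 lymphocyte and 1 mesothelial markers called, all higher, beside 4.5% of all protein coding genes. Between the treated groups 0 markers of any list were called, beside 0.0147% of all protein coding genes.

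**Figure D5:**
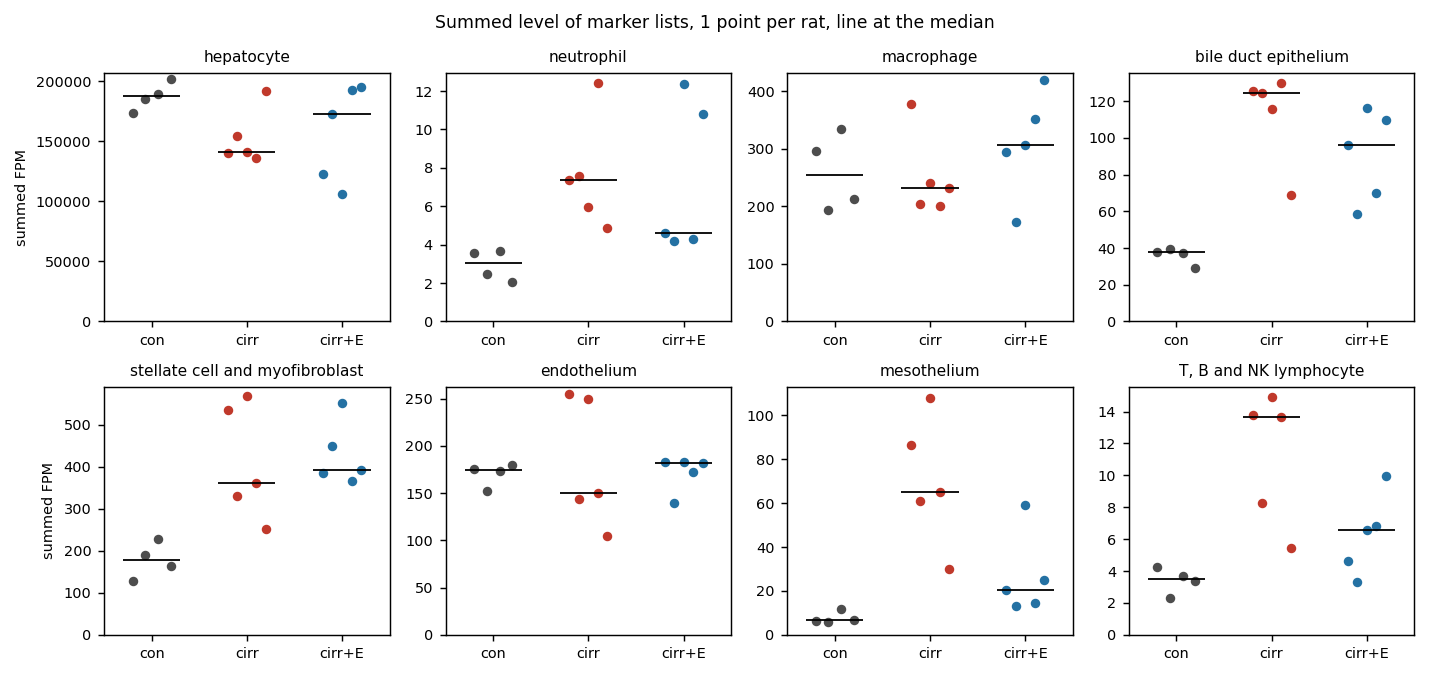
Summed level of 8 marker lists (y axis, FPM, linear from 0), with 1 point per rat and a line at the group median, for control (con), cirrhosis (cirr) and cirrhosis & eplerenone (cirr+E). Bile duct sums are 29.2 to 39.4 FPM in controls and 68.7 to 130 in cirrhosis without overlap, while hepatocyte and macrophage sums overlap between the groups.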

How the data were processed

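Liver poly(A) RNA of 3 groups of rats was sequenced by the authors with paired reads of 150 bp. Per the labels and the study's methods, reads were mapped to rn6 with HISAT2 (2.1.0) and counted per exon of Ensembl 101 genes by featureCounts. A read with several matching places was added to each of them, which can raise the counts of near-identical copies. The authors deposited raw counts per gene without normalization or filter. Samples were grouped by the treatment in the labels. Each sample is a different rat, and the replicate numbers are only names: in 13 pairs of same-numbered samples the correlation of deviations was -0.35 to 0.21, and 4 pairs were above 0.1.

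From the deposited counts, 14417 genes passed filterByExpr of edgeR (smallest count 10), including 13628 protein coding genes. TMM factors set the library sizes. One model per tool held all 3 groups (edgeR 4.0.16 and DESeq2 1.42.0, with limma 3.58.1, in R 4.3.3), and a gene was called where both gave an FDR below 0.05. The SE is the absolute log2FC divided by the square root of the edgeR F statistic. The interaction was fitted by edgeR in the 10 treated rats. Intervals of count ratios are exact and cover counting error only. The steps were tested on simulated data. Promoters and gene order come from RefSeq (GRCr8), whose coordinates are not those of rn6.

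The members, the partner list, the marker lists and the alternative with 4 rats per group were chosen with earlier results of these data known. Every member that passed the filter is named. Values of every rat are printed for the 8 largest absolute log2FC among members called between control and cirrhosis, the 3 smallest edgeR p between the treated groups, and the pairs S100a8 with S100a9 and Anxa2 with S100a10. Alternatives changed the scaling, the filter, the call rule, the samples, the block, the biotypes and the number that opens the animal label.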

Additional observations from a re-analysis of the deposited data

Results flagged for a closer look

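Within a group, the highest or lowest rat was called apart where its gap to the next rat, divided by the range of the group, exceeded Dixon's 95% critical value. This was checked in 60 groups of values, 20 members in 3 groups, and 6 values stood apart, where chance gives about 1 in 20 groups or 3. The members were measured in the same rats, so these checks are not independent. Anxa1 was at 8.67 FPM in control replicate 4, with the other controls at 3.82 to 4.20, and Anxa5 at 18.3 FPM in the same rat, with the others at 15.1 to 15.4. Anxa5 was at 38.0 FPM in cirrhosis replicate 5, with the other cirrhosis rats at 120 to 146. In the cirrhosis & eplerenone group, Anxa1 was at 44.8 FPM in replicate 3 (others 8.52 to 13.9), Anxa4 at 38.4 FPM in replicate 2 (others 50.4 to 53.1) and S100a1 at 3.88 FPM in replicate 5 (others 1.86 to 2.43).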

How the results depend on the processing

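Between control and cirrhosis, the number of called members lay within 1.5 times that reported in each of the 10 other settings run, and was 12 to 15 with each compared rat left out. Between control and cirrhosis & eplerenone, 10 members became 6 with a minimum of 10 counts in all samples (3.42% of all protein coding genes tested). They became 0 to 10 with each compared rat left out. Of the 4 lost with that minimum, S100a8 and S100a9 were not tested there, and Anxa2 and S100a10 were tested and missed the call. Between the treated groups, 0 became 1 with DESeq2 alone and 9 with 4 samples per group, and was 0 to 1 with each rat left out. The replicate number as a block, which pairs no animals, left 1 called member (S100a8) between control and cirrhosis & eplerenone, beside 1.91% of all protein coding genes. Of the 14 samples, 0 resembled their own number best. Under the block the log2FC changed sign for Anxa11 (0.0098) and S100a13 (-0.014) against control and for S100a9 (-0.070) between the treated groups.

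Scaling by total counts raised the median log2FC of all genes by 0.29, 0.32 and 0.03 in the 3 comparisons, and the medians of the members became 2.20, 1.94 and -0.47. Small values changed sign: S100pbp to 0.18 between control and cirrhosis, Anxa11 to 0.30 and Anxa6 to 0.16 with eplerenone against control, and Anxa3 to 0.033 and S100a1 to 0.0023 between the treated groups. Anxa11 against control was also above 0 with DESeq2 size factors (0.0044), no filter (0.011), the stricter filter (0.034), DESeq2 alone (0.0041), the compared groups only (0.011) and 4 samples per group (0.053). The cause was not tested.

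Between the treated groups, the number that opens the label as a covariate gave 0.045 for S100a1, -0.0011 for S100a8 and -0.69 for S100a9. Within 15 alone S100a8 was at -0.10 and S100a9 at -1.69. Within 20 alone Anxa1 was at 0.35, Anxa3 at 0.44, Anxa6 at 0.40, Anxa8 at -0.40, S100a1 at 0.72 and S100pbp at -0.18.

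With each compared rat left out, the sign also changed for S100pbp between control and cirrhosis (-0.34 to 0.072), for Anxa11 (-0.068 to 0.075), Anxa3 (-0.0060 to 0.49) and S100a13 (-0.10 to 0.26) with eplerenone against control, and for Anxa3 (-0.20 to 0.12), S100a1 (-0.26 to 0.12), S100a8 (-0.32 to 1.09) and S100a9 (-0.64 to 0.58) between the treated groups. None of these was called. Depth limits the 10 members below the filter, which had at most 15 counts in a rat.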
